A study of Bos taurus with 16 samples.

Results

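The genes described are 34 nuclear genes of oxidative phosphorylation, chosen by name as subunits of the 5 complexes of the mitochondrial inner membrane. Of the 34, 31 had counts in these bovine libraries, namely 11 of 11 for complex I, 4 of 4 for complex II, 4 of 5 for complex III, 7 of 9 for complex IV and 5 of 5 for complex V. UQCRC2, COX5A and COX7C matched no accession in the counts and are not analysed here. The counts hold 20629 features in all, 12429 of them with a gene symbol.

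The study followed 45 lactating Holstein cows at 1 dairy and recorded uterine and other diseases after calving. All cows entered an ovulation synchronization program with gonadotropin-releasing hormone and prostaglandin F2α, and cows with metritis received ceftiofur. At 63 ± 3 days after calving the dominant follicle was aspirated under ultrasound, and the cells pelleted from the aspirate, named granulosa cells in the protocol, gave the RNA. Of 16 libraries, 9 are labelled control and 7 treatment. The labels do not say which treatment is meant or which cow gave which library, and they name blood as the tissue of every library. The p-values below therefore measure the spread between these libraries, which may be technical.

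Oxidative phosphorylation makes most of the ATP of a resting cell. Complexes I and II feed electrons from NADH and succinate to ubiquinone, complex III passes them to cytochrome c, and complex IV hands them to oxygen. Complexes I, III and IV pump protons across the inner membrane, and complex V, the ATP synthase, uses that gradient to make ATP. Complexes I, III, IV and V join subunits encoded in the nucleus with subunits encoded in mitochondrial DNA, while complex II is entirely nuclear. None of the 13 mitochondrially encoded subunits matched the counts, so only the nuclear side is described. Granulosa cells line the follicle, make estradiol and feed the oocyte, and monocytes and other leukocytes are the blood cells that can enter an aspirate.

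The libraries were of 2 kinds, set by INHA, the inhibin alpha subunit made by granulosa cells. Values are CPM, in which each gene's count is divided by its library's total of transcript counts and scaled to a total common to all libraries. In 9 granulosa-rich libraries (control replicates 2, 3, 4, 7 and 8 and treatment replicates 4, 5, 6 and 7) INHA lay between 1760 and 3040 CPM. In 7 leukocyte-rich libraries (control replicates 1, 5, 6 and 9 and treatment replicates 1, 2 and 3) it lay between 0.404 and 111 CPM, the highest being treatment replicate 1. PTPRC, the pan-leukocyte protein CD45, lay between 118 and 312 CPM in the leukocyte-rich libraries and between 6.35 and 98 CPM in the others, and the monocyte marker CD14 between 1860 and 4030 CPM against 5.32 to 332 CPM. INHA, a defining marker of the cells named in the protocol, was thus at 4.75 CPM or less in 6 of 16 libraries. Totals ran from 8111862 to 14348753 counts, and 3 counts correspond to between 0.212 and 0.375 CPM, which covers counting error only. No member was without a count in any library.

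Among the granulosa-rich libraries 3 stood apart in ways that touch the results. Treatment replicate 5 had counts on 12972 accessions, the fewest of all, and was the highest of the 9 for 18 of 31 members. Treatment replicate 7 was the lowest for 12 members, and its CYP19A1, the aromatase of estradiol synthesis, was at 276 CPM against 22100 CPM in treatment replicate 5. Control replicate 7 was the lowest for 11 members, and this depended on scaling. Its TMM factor, edgeR's correction for the makeup of a library, was 0.614, and after that correction it was the lowest for 1 member. Treatment replicate 5 was also the lowest for NDUFV1 and COX4I1, so its members did not all differ in 1 direction. The heatmap of members by library shows where these 3 libraries depart from the others of their kind.

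**Figure D1:**
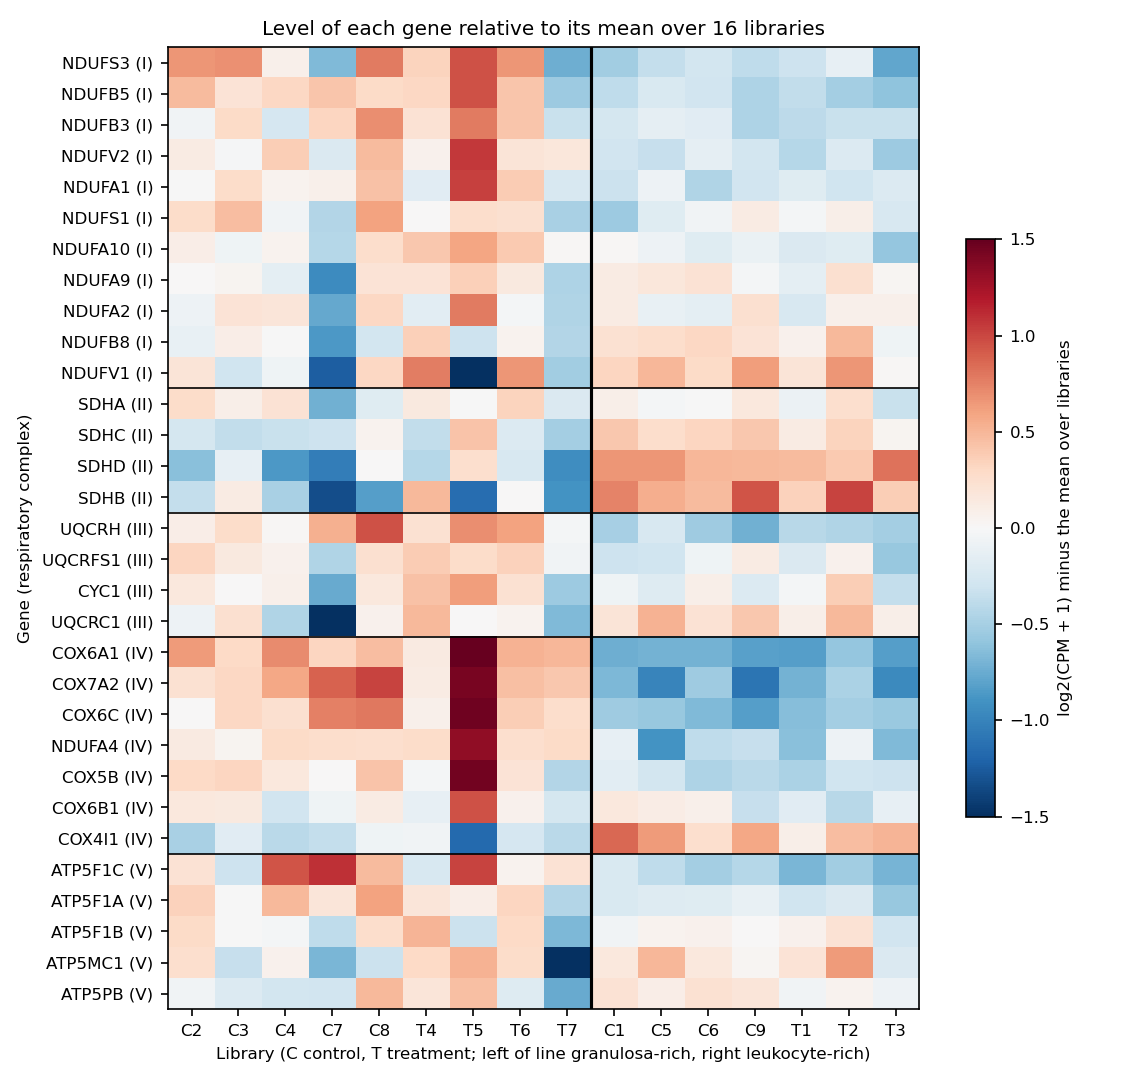
Each cell is a member's log2(CPM + 1) in a library minus that gene's mean over the 16 libraries, with genes ordered by complex and libraries by kind and label; the color scale ends are limits, so values beyond them share the end color. COX6A1 and COX7A2 sit high across the granulosa-rich libraries and SDHD and COX4I1 high across the leukocyte-rich ones, and treatment replicate 5 stands out within its kind.

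Set against the leukocyte-rich libraries, the granulosa-rich ones had the higher median for 6 of the 7 measured complex IV members. They had the lower median for 3 of the 4 complex II subunits. In CPM, 5 of 31 members (16.1%) were higher in every granulosa-rich than in every leukocyte-rich library, namely UQCRH, COX6A1, COX6C, COX7A2 and NDUFA4. Over all 9662 features with a mean of at least 1 CPM that share was 6.14%. The reverse held for SDHD and COX4I1, 6.45% of the members, against 11.4% of all features. The other 24 members overlapped. The median member was 0.29 higher in the granulosa-rich libraries on the log2 scale of medians, while the median over all features was -0.13. The kinds were set by a measured gene and are no groups of the study, so these values are described and not tested. In bulk RNA, fewer cells of a type and less RNA per cell cannot be told apart.

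TMM scaling moved the median over all features by more than 0.1, to -0.02. Relative to all features the median member lay 0.42 higher in CPM and 0.48 higher with TMM. With TMM, 7 members (22.6%) were above in every granulosa-rich library, the 5 named before with NDUFV2 and UQCRFS1, against 8.61% of all features. None was above in every leukocyte-rich library, against 10.4% of all features. The sign of the difference of medians changed with TMM for 4 members, NDUFA2, ATP5F1B, ATP5PB and ATP5MC1. Without treatment replicate 5 the counts in CPM were again 5 (16.1%, against 8.23% of all features) and 2 (6.45%, against 12.2%). The median member was then 0.18 higher and the median over all features -0.11, so relative to all features it lay 0.29 higher.

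Complex I takes electrons from NADH. Of its 11 members 7 had the higher median in the granulosa-rich libraries, and all 11 overlapped between the kinds. NDUFS3, a core subunit of the arm that reaches into the matrix, differed most, with a median of 159 CPM (59.8 to 195) against 78 CPM (58 to 92.3), 2.03-fold. Its overlap came from control replicate 7 at 62.8 CPM and treatment replicate 7 at 59.8 CPM, while the other 7 granulosa-rich libraries were at or above 106 CPM. NDUFV2, a flavoprotein-fragment subunit, had a median of 380 CPM (290 to 702) against 277 CPM (231 to 306). The only granulosa-rich library within the leukocyte-rich range for NDUFV2 was control replicate 7 at 290 CPM. NDUFV1, which binds the FMN cofactor and NADH, was the most uneven member, from 2.03 CPM in treatment replicate 5 to 27 CPM in treatment replicate 4, with a standard deviation of 0.88 on the log2 scale after TMM scaling. In the leukocyte-rich libraries NDUFV1 ran from 15.6 to 25 CPM. NDUFA9, an accessory subunit, was the most even between kinds, at 102 against 108 CPM. The remaining members, NDUFA1, NDUFA2, NDUFA10, NDUFB3, NDUFB5, NDUFB8 and NDUFS1, are accessory or core subunits whose log2 difference of medians ran from -0.34 for NDUFB8 to 0.70 for NDUFB5.

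Complex II, succinate dehydrogenase, links the citric acid cycle to the chain. SDHA, the flavoprotein that oxidizes succinate, was nearly even, with a median of 709 CPM (404 to 842) in the granulosa-rich and 663 CPM (529 to 795) in the leukocyte-rich libraries. The other 3 subunits had the higher median in the leukocyte-rich libraries. SDHB, the iron-sulfur subunit, was at 15.7 CPM (8.27 to 31.8) against 33 CPM (28.8 to 46), and only treatment replicate 4, at 31.8 CPM, reached the leukocyte-rich range. SDHC and SDHD anchor the complex in the membrane and hold the ubiquinone site. SDHC was at 268 CPM (233 to 448) against 416 CPM (342 to 442), with control replicate 8 and treatment replicate 5 inside or above the leukocyte-rich range. SDHD was at 187 CPM (122 to 300) against 355 CPM (331 to 442), 1.89-fold higher in the leukocyte-rich libraries with no overlap. With TMM scaling SDHD overlapped, at 133 to 372 against 291 to 437 CPM.

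Complex III, the cytochrome bc1 complex, had 4 measured members. UQCRH, the hinge protein that helps cytochrome c1 meet cytochrome c, was at 47.4 CPM (38.1 to 76.7) against 27.4 CPM (23.2 to 32.9), 1.70-fold higher in the granulosa-rich libraries with no overlap. UQCRFS1, the Rieske iron-sulfur protein, was at 337 CPM (207 to 370) against 245 CPM (191 to 309), and control replicates 4 and 7 and treatment replicate 7 were the granulosa-rich libraries inside the leukocyte-rich range. CYC1, cytochrome c1, was at 255 against 220 CPM. UQCRC1, a core protein, was the member of this complex with the lower median, 226 CPM (70.3 to 317) against 261 CPM (239 to 324), with control replicate 7 lowest.

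Complex IV, cytochrome c oxidase, held 4 of the 5 members that did not overlap upward. COX6A1, the widely expressed isoform of subunit 6A, differed most of all 31, at 978 CPM (758 to 2080) against 414 CPM (390 to 462), 2.36-fold. COX7A2, the widely expressed isoform of subunit 7A, was at 358 CPM (285 to 706) against 160 CPM (122 to 188), 2.22-fold. Both subunits are small accessory proteins around the catalytic core, which mitochondrial DNA encodes. COX6C was at 417 CPM (337 to 928) against 226 CPM (190 to 235), and NDUFA4, first assigned to complex I and now counted with complex IV, at 381 CPM (328 to 803) against 243 CPM (170 to 302). Treatment replicate 5 was the highest library for all 4, and the other 8 granulosa-rich libraries also lay above the leukocyte-rich range. COX5B, which binds zinc, was at 471 CPM (302 to 1120) against 330 CPM (294 to 367), with treatment replicate 7 inside the leukocyte-rich range. COX4I1, the main isoform of the subunit through which ATP regulates the enzyme, ran the other way, at 50.3 CPM (28.2 to 62.2) against 92.9 CPM (68.6 to 118), 1.83-fold higher in the leukocyte-rich libraries with no overlap in CPM. With TMM scaling COX4I1 overlapped, at 34.9 to 81.9 against 60.1 to 112 CPM. COX6B1 differed least, at 105 against 92.1 CPM.

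Of the 5 complex V members 2 had the higher granulosa-rich median in CPM and all 5 with TMM scaling, and all 5 overlapped between the kinds under both. ATP5F1A, the alpha subunit of the catalytic head, was at 2650 CPM (1720 to 3550) against 2010 CPM (1570 to 2160), with treatment replicate 7 inside the leukocyte-rich range. ATP5F1B, the beta subunit that carries the catalytic sites, was at 1600 CPM (1010 to 2290) against 1670 CPM (1320 to 1880). ATP5F1C, the rotating gamma subunit, was at 40.4 CPM (27.6 to 74.7) against 23.9 CPM (20.9 to 29.3), 1.66-fold higher, and control replicate 3 and treatment replicate 4 kept it from separating. ATP5PB, the b subunit of the stator, was at 523 CPM (353 to 839) against 639 CPM (570 to 704). ATP5MC1, 1 of 3 genes for the c subunit of the membrane ring, was at 22.1 CPM (6.53 to 30.9) against 23.8 CPM (18.1 to 33.6).

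**Figure D2:**
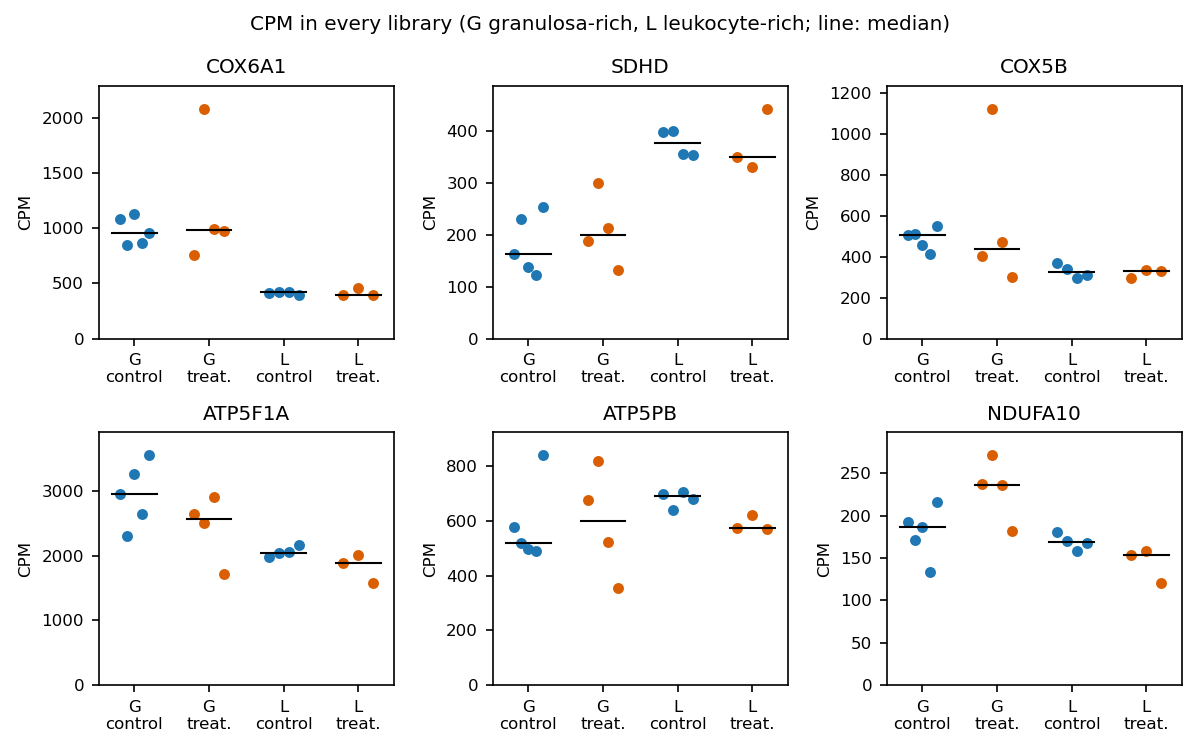
CPM of COX6A1, SDHD, COX5B, ATP5F1A, ATP5PB and NDUFA10 in each library, by kind and label, each point a library. COX6A1 lies at 758 CPM or more in the granulosa-rich libraries and at 462 CPM or less in the leukocyte-rich ones, SDHD the other way, and the single high COX6A1 and COX5B points are treatment replicate 5.

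The balance between the members of the complexes can be read without scaling, since each library's members are divided by their own sum. Genes with high CPM weigh most in these shares, and the other measured subunits are not in the sum. Complex IV members made up 20.2 to 39.2% (median 25%) of the summed CPM of the 31 members in the granulosa-rich libraries and 15.4 to 18.9% (median 16.5%) in the leukocyte-rich ones. Complex II members made up 8.38 to 11.8% (median 10.5%) against 15.8 to 17.3% (median 16.2%). Neither of these shares overlapped between the kinds. The shares of complex I (median 11.2% against 10.6%), complex III (7.39% against 8.58%) and complex V (46.7% against 48%) did. A share also falls when another complex rises. The summed CPM of complex II overlapped between the kinds, at 802 to 1420 against 1340 to 1590 CPM, and at 962 to 1760 against 1200 to 1500 with TMM scaling. The complex IV sum did not overlap, at 2340 to 5860 against 1420 to 1700 CPM. Treatment replicate 5 had the highest complex IV share, 39.2%, and the lowest complex V share, 31.4%. Its complex V sum, 4702 CPM, was not the lowest, which was 3131 CPM in treatment replicate 7. Its complex IV sum was 5862 CPM. The members together took 0.823 to 1.5% of a library's counts in the granulosa-rich and 0.776 to 0.98% in the leukocyte-rich libraries.

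**Figure D3:**
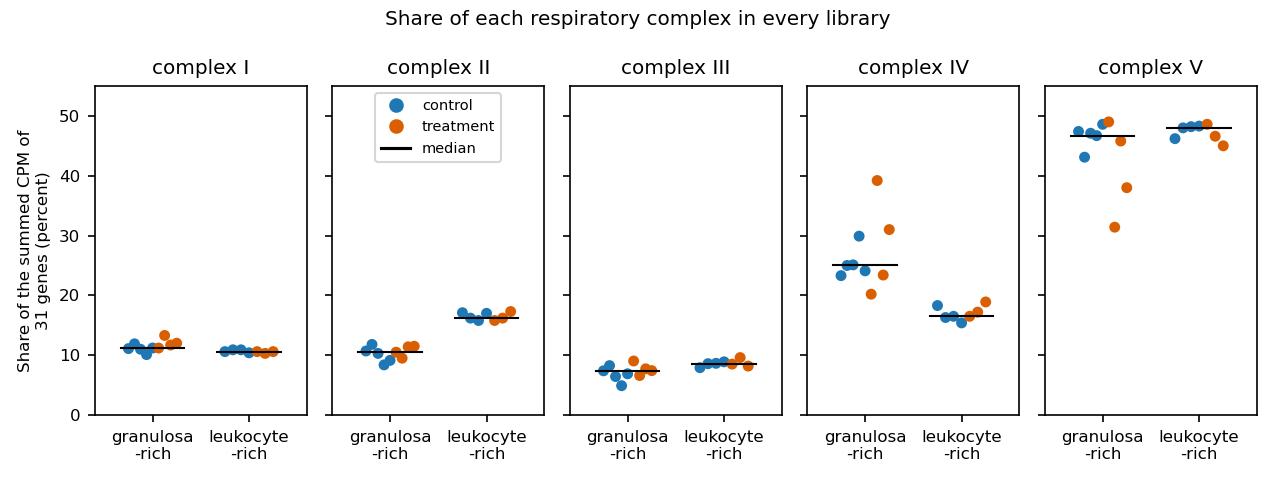
Percent of the summed CPM of the 31 members held by each complex, by kind of library, each point a library colored by label, with the median as a line. The complex II and complex IV shares do not overlap between kinds, at 8.38 to 11.8% against 15.8 to 17.3% and 20.2 to 39.2% against 15.4 to 18.9%. The summed complex II CPM, not drawn here, does overlap, at 802 to 1420 against 1340 to 1590 CPM.

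The members varied more among the granulosa-rich libraries. The median over members of the standard deviation of log2 TMM-scaled CPM was 0.47 there and 0.16 in the leukocyte-rich libraries, and it was larger in the granulosa-rich libraries for 30 of 31 members, UQCRFS1 being the exception. Over all features the medians were 0.66 and 0.35, and the granulosa-rich one was the larger for 8080 of 9662 features. Counting also differed between members. The 22 members counted on 1 accession had a median mean of 295 CPM, and the 9 counted on 2 or more (NDUFB3, NDUFB8, NDUFS1, NDUFV1, SDHB, UQCRH, COX4I1, ATP5F1C and ATP5MC1) had a median mean of 25.2 CPM. How reads shared by several accessions were counted is not given in the sources used here, so levels of those 9 are uncertain. UQCRH and COX4I1, which did not overlap between the kinds in CPM, are among the 9. No levels are compared between single genes. The complex shares above sum over genes, some of the 9 included, and carry the same uncertainty.

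Treatment was then compared with control. No member passed at an adjusted p under 0.05 by edgeR's quasi-likelihood test with Benjamini-Hochberg adjustment, over all 16 libraries or within a kind. The same held for all features, with 0% called of 9653 over all libraries, 9272 in the granulosa-rich and 9912 in the leukocyte-rich libraries. No member had an unadjusted p under 0.05 either, and few features did, 1.69%, 4.67% and 2.61% of all. At such shares 0 of 31 does not set the members apart from all features. DESeq2 called 26 features in the granulosa-rich libraries, none of them a member, and 0 over all libraries and in the leukocyte-rich ones. The difference of the treatment effect between kinds, tested as an interaction, gave 0% of 11468 features called and 5.31% with an unadjusted p under 0.05, again with 0 members. The smallest member p over all libraries was 0.172, for ATP5F1A. When the fit also held a term for the 2 kinds, 0% of 9653 features were called and 2.51% had an unadjusted p under 0.05, with 0 members. ATP5F1A had the lowest member p there too, 0.0521 (log2 fold change -0.34 ± 0.16 SE, edgeR adjusted p = 0.9993), followed by COX4I1 at 0.084 (-0.30 ± 0.16, edgeR adjusted p = 0.9993).

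In the granulosa-rich libraries, with 5 control and 4 treatment libraries, 16 members had a fitted log2 fold change of treatment over control above 0 and 15 below, with a median of 0.01 against 0.04 over all features. By complex the medians were -0.02 for complex I, 0.03 for II, 0.08 for III, 0.10 for IV and -0.20 for V. For no member did the labels separate, against 1.31% of all features with every treatment library above and 0.528% with every treatment library below. The member with the lowest p was ATP5F1A, at 2960, 2310, 3270, 2650 and 3550 CPM in control replicates 2, 3, 4, 7 and 8 and 2650, 2500, 2900 and 1720 CPM in treatment replicates 4, 5, 6 and 7. The treatment libraries sit in the lower part of the control range, with replicate 7 below it. Its log2 fold change was -0.46 ± 0.26 (SE, adjusted p = 0.9833 by edgeR).

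The next 4 members by p showed the same overlap. COX4I1 was at 45.9, 57.3, 48.7, 50.3 and 61.8 CPM in control and 62.2, 28.2, 54.2 and 48.8 CPM in treatment libraries, in the same replicate order. The low value is treatment replicate 5, and the other 3 treatment libraries fall within or just above the control range (log2 fold change -0.35 ± 0.27 SE, edgeR adjusted p = 0.9833). NDUFA10, an accessory complex I subunit, was at 193, 171, 186, 133 and 216 CPM in control and 237, 271, 236 and 182 CPM in treatment libraries, with 3 of 4 treatment libraries above all controls (0.22 ± 0.22, edgeR adjusted p = 0.9844). NDUFS1, the largest core subunit of complex I, was at 26.9, 30.7, 21.1, 15.9 and 33.9 CPM in control and 22, 26.5, 26.1 and 15.4 CPM in treatment libraries (-0.31 ± 0.32, edgeR adjusted p = 0.9844). ATP5F1C was at 40.4, 27.6, 67.4, 74.7 and 48.4 CPM in control and 29, 70.8, 35.9 and 40.3 CPM in treatment libraries (-0.45 ± 0.49, edgeR adjusted p = 0.9844). For ATP5F1C treatment replicate 5 was again the high treatment library.

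In the leukocyte-rich libraries, with 4 control and 3 treatment libraries, 22 of 31 members (71%) had a fitted log2 fold change below 0, against 48.9% of all features. The median was -0.08 against 0.01, and by complex it was -0.08 for I, -0.09 for II, -0.03 for III and IV and -0.18 for V. ATP5PB and ATP5F1C were lower in every treatment than in every control library, 6.45% of the members against 1.78% of all features. No member was above in every treatment library, against 1.98%. With TMM scaling 4 members were lower in every treatment library, those 2 with NDUFA10 and ATP5F1A, 12.9% of the members against 2.41% of all features. ATP5PB was at 697, 639, 704 and 681 CPM in control replicates 1, 5, 6 and 9 and 575, 621 and 570 CPM in treatment replicates 1, 2 and 3. The gap between the nearest libraries of the labels was narrow, and the log2 fold change was -0.21 ± 0.12 (SE, edgeR adjusted p = 0.9996). ATP5F1C was at 29.3, 26.2, 23.9 and 25.5 CPM in control and 21.1, 23.8 and 20.9 CPM in treatment libraries (-0.26 ± 0.17, edgeR adjusted p = 0.9996). Its nearest libraries of the labels, at 23.9 and 23.8 CPM, were almost level, and its levels are among those called uncertain above.

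NDUFA10 had the lowest p in this kind. It was at 181, 170, 158 and 168 CPM in control and 154, 158 and 120 CPM in treatment libraries, with control replicate 6 and treatment replicate 2 level (log2 fold change -0.24 ± 0.12 SE, edgeR adjusted p = 0.9996). SDHC was at 441, 400, 416 and 442 CPM in control and 362, 419 and 342 CPM in treatment libraries (-0.19 ± 0.12, edgeR adjusted p = 0.9996). ATP5F1A was at 1980, 2040, 2050 and 2160 CPM in control and 1890, 2010 and 1570 CPM in treatment libraries (-0.18 ± 0.13, edgeR adjusted p = 0.9996). In each of these genes treatment replicate 3 was the lowest library. It was the lowest of the 7 for 17 of 31 members in CPM and for 8 with TMM scaling.

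The fitted difference of NDUFA10 was above 0 in the granulosa-rich and below 0 in the leukocyte-rich libraries, and the interaction was 0.49 ± 0.29 (SE, edgeR adjusted p = 0.9236). For ATP5F1A the interaction was -0.26 ± 0.32 (edgeR adjusted p = 0.9781). A difference between the kinds was therefore not shown for either gene. The precision differed between the fits. In the leukocyte-rich libraries the 95% interval of every member stayed within 1 on the log2 scale, its bounds running from -0.69 to 0.57, and 19 of 31 stayed within 0.5. In the granulosa-rich libraries the bounds ran from -1.53 to 1.29, and 22 of 31 intervals stayed within 1, so a 2-fold difference was not excluded for 9 members. The plot of fold changes within each kind shows every interval crossing 0.

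**Figure D4:**
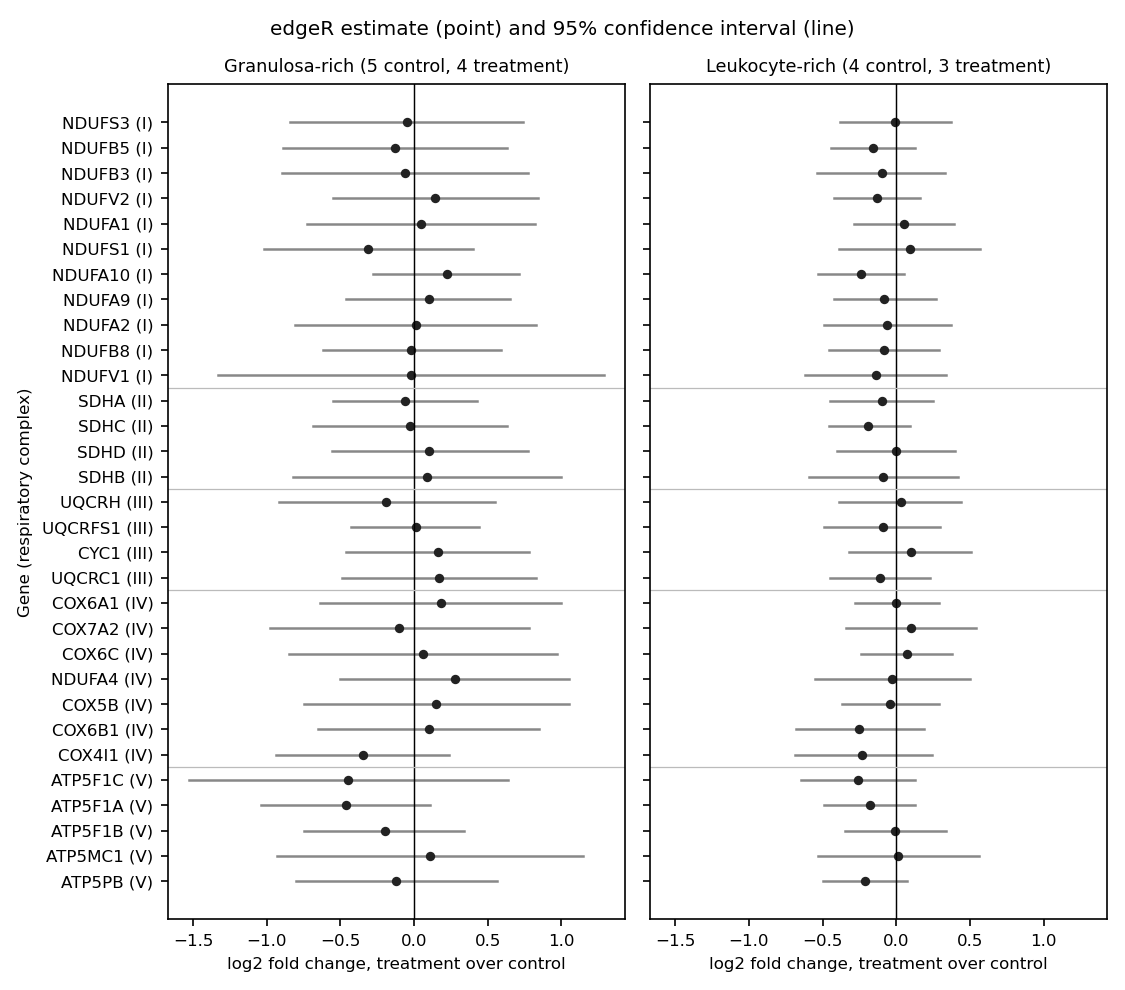
Log2 fold change of treatment over control (x axis) for each of the 31 members (y axis, by complex) with its 95% interval, in the 9 granulosa-rich libraries and in the 7 leukocyte-rich ones. Every interval crosses 0, and the leukocyte-rich intervals, between -0.69 and 0.57, are the narrower.

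The balance of directions in the granulosa-rich libraries rested on treatment replicate 5. Without it, 27 of 31 members had a fitted log2 fold change below 0 and the median went from 0.01 to -0.38, while 47.3% of all features lay below 0. No feature passed the adjusted threshold then. Of all features 5.52% had an unadjusted p under 0.05 in that fit, and of the 31 members 1 did, COX5B, which is no more than that share. COX5B was at 504, 510, 455, 411 and 550 CPM in control and 402, 471 and 302 CPM in treatment replicates 4, 6 and 7 (log2 fold change -0.58 ± 0.19 SE, edgeR adjusted p = 0.8577). Treatment replicate 5 had COX5B at 1120 CPM, and with it the COX5B value was 0.15 ± 0.41. The COX5B interaction without that library was -0.53 ± 0.24 (edgeR adjusted p = 0.8354). ATP5F1A was -0.58 ± 0.26 without it (edgeR adjusted p = 0.8577). Over all libraries the median member went from -0.02 to -0.28 without it, with 29 members below 0. Leaving out treatment replicate 5 was chosen after its values were seen. Treatment replicate 7, which stayed in, was the lowest library of its kind for 16 members with TMM scaling. Its part in these values was not tested. With each granulosa-rich library left out in turn, the median member in that kind ran from -0.38 to 0.17.

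**Figure D5:**
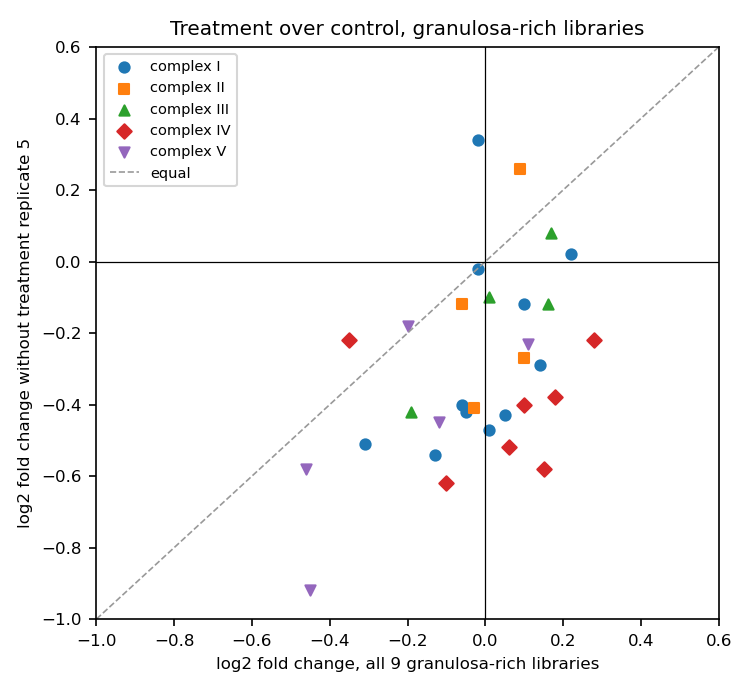
Log2 fold change of treatment over control in the granulosa-rich libraries with all 9 libraries (x axis) and without treatment replicate 5 (y axis), each point a member. Most points lie below the line of equal values, and 27 of 31 are below 0 on the y axis.

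Marker lists of other cells differed in range between the labels inside each kind. In the granulosa-rich libraries the summed CPM of 6 of 7 monocyte and macrophage markers was 19.5 to 464 in control and 214 to 1030 in treatment libraries, with CD163 at 0 in all 5 controls. The 8 of 8 pan-leukocyte markers summed to 14.8 to 908 CPM against 234 to 774 CPM, and the 8 of 8 granulosa markers to 64100 to 96200 CPM against 13300 to 77300 CPM. The theca and stroma markers (7 of 7) summed to 428 to 2940 CPM in granulosa-rich control and 178 to 979 CPM in granulosa-rich treatment libraries, the T and NK cell markers (8 of 8) to 3.41 to 184 CPM against 13.1 to 152 CPM, and the endothelium markers (5 of 5) to 3.49 to 33.7 CPM against 3.36 to 135 CPM. In the leukocyte-rich libraries the pan-leukocyte sum was 6440 to 7540 CPM in control and 5120 to 6240 CPM in treatment libraries, with no overlap. The theca and stroma markers summed there to 525 to 2260 CPM against 400 to 11000 CPM, and the granulosa markers to 28.9 to 128 CPM against 35.6 to 3650 CPM. Of the granulosa markers CYP19A1 was at 1030 CPM in treatment replicate 1, against 15.4 and 7.26 CPM in treatment replicates 2 and 3. The part of these markers in the members' values was not tested.

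Of the 46 other nuclear subunits listed, 43 had counts and 41 reached a mean of 1 CPM. Between the kinds 8 of the 41 (19.5%) were higher in every granulosa-rich library, against 6.14% of all features, and 0 in every leukocyte-rich one, against 11.4%. With TMM scaling the counts were 13 (31.7%, against 8.61%) and 0 (against 10.4%). In CPM 29 had the higher granulosa-rich median. The 8 were NDUFA3, NDUFA5, NDUFA6, NDUFB1 and NDUFB4 of complex I, UQCR10 of complex III, COX7B of complex IV and ATP5MK, a small accessory subunit of complex V. COX7B differed most, at 40.1 CPM (14.9 to 85.2) against 7.43 CPM (4.57 to 9.24). The other 2 subunits listed with complex IV had the lower granulosa-rich median, with overlap. COX8A was at 31.3 against 48.1 CPM and COX7A2L at 280 against 340 CPM. The 36 assembly factors that reached 1 CPM, which build the complexes without staying in them, had 0 members above in either direction and a median log2 difference of -0.14, at the level of all features.

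Paired isoforms of the same subunit can replace each other in a tissue. COX6A2, the heart and muscle partner of COX6A1, stayed between 0 and 0.898 CPM in 15 libraries and reached 10 CPM (124 counts) in control replicate 6. COX7A1, the muscle partner of COX7A2, was at 16.3 CPM (11 to 29.2) in the granulosa-rich and 10.7 CPM (6.14 to 16.4) in the leukocyte-rich libraries. NDUFA4L2, the hypoxia-induced relative of NDUFA4, ran from 0.33 to 150 CPM in the granulosa-rich and from 1.5 to 262 CPM in the leukocyte-rich libraries. It was thus near 0 in treatment replicate 4 and control replicate 9 and above 100 CPM in others of the same kind. Among the c subunit genes, ATP5MC2 was at 20 against 23.1 CPM and ATP5MC3 at 387 against 473 CPM, both overlapping. COX4I2 matched no accession.

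Of 10 regulators of mitochondrial gene expression with a mean of at least 1 CPM, 7 overlapped between the kinds in CPM. HIF1A and TFB2M were higher in every granulosa-rich library, as were 6.14% of all features. YY1 was higher in every leukocyte-rich library, as were 11.4% of all features. PPARGC1A, the coactivator PGC-1α, had 2 counts in control replicate 2 and 0 in the other 15 libraries, which at this depth allows up to 0.375 CPM. NRF1, which binds promoters of many respiratory genes, was at 3.24 CPM in the granulosa-rich and 6.71 CPM in the leukocyte-rich libraries, and TFAM, which packages and transcribes mitochondrial DNA, at 63.5 and 56 CPM, both with overlap. HIF1A, the oxygen-regulated transcription factor, was at 7310 CPM (5770 to 9960) against 1770 CPM (1170 to 3240), with no overlap. TFB2M, a mitochondrial transcription factor, was at 108 CPM (69.8 to 137) against 56.8 CPM (48.9 to 69.5). YY1, a transcription factor with sites in respiratory gene promoters, ran the other way, at 210 CPM (168 to 241) against 297 CPM (267 to 327), and overlapped with TMM scaling. PDSS1, which makes the side chain of ubiquinone, was at 23 CPM (7.86 to 31.8) against 3.11 CPM (2.19 to 3.52). In its list of electron carriers and quinone synthesis the other 12 of 13 genes overlapped, and in the list that holds UCP2 the other 5 of 6 did. UCP2, an inner-membrane carrier abundant in myeloid cells, was at 77.7 CPM (24.4 to 220) against 1460 CPM (955 to 1640), the largest difference toward the leukocyte-rich libraries among the genes of these lists.

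None of these other genes passed the adjusted threshold between the labels in any fit. In the granulosa-rich libraries 8 of 42 tested other subunits had a fitted value below 0, against 47.1% of all features. Without treatment replicate 5 it was 35 of 42, against 47.3%, so this balance too turned with that library. In the leukocyte-rich libraries 29 of 42 were below 0, against 48.9%. The lowest p of each list lay between 0.0305, for COQ2 of ubiquinone synthesis, and 0.321 in the granulosa-rich libraries, where COQ2 had a log2 fold change of -1.16 ± 0.46 (SE, edgeR adjusted p = 0.9833). In the leukocyte-rich libraries the lowest was 0.0402, for ATP5PO, the oligomycin sensitivity protein of the ATP synthase stator, at -0.27 ± 0.11 (edgeR adjusted p = 0.9996).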

How the data were processed

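The deposited files hold whole-number read counts per RefSeq accession, not normalized. The submitters' processing notes name cutadapt, SAMtools and Bowtie2. Tool versions, the genome build and how shared reads were handled are not stated in the sources used here. Per the labels' protocols, poly(A) RNA was taken from 200 ng of RNA (integrity number 7 or more), and libraries were unstranded and amplified for 12 cycles, so overlapping and antisense genes share reads. Genomic accessions (133 of 27306; 0.71 to 1.92% of counts) were left out, and 18973 of 27173 transcript accessions matched a symbol in RefSeq's table of ARS-UCD2.0, used for names only, with versions ignored. Counts were summed per gene.

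Members and lists were chosen with earlier results of these data known. Treatment was compared with control by edgeR 4.0.16 (R 4.3.3; robust quasi-likelihood test, TMM, filter on low counts by group, Benjamini-Hochberg over all features, adjusted p under 0.05); SE is the log2 fold change over the square root of F. The fits were run over all 16 libraries, within each kind and as an interaction, and tested on simulated data. DESeq2 1.42.0, limma 3.58.1, other scalings and filters, and each library left out were the alternatives. Log2 levels in the heatmap add 1 CPM. Kinds were INHA above 1000 CPM or under 200 CPM and were not tested. Named were, per complex, the member with the highest mean CPM and those with the largest and smallest difference between kinds, in each kind the 5 members with the lowest p, the lowest p of each other list, and fixed isoform pairs and regulators; further genes were named after their values were seen. A result that this rule would name is not reported here. Promoter motifs and protein identity were not analysed here.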

Additional observations from a re-analysis of the deposited data

Results flagged for a closer look

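Within a label and kind, 93 groups of 4 or 5 libraries were examined for a single library far from the rest, and 6 held such a library. Chance gives about 1 in 20, and 6 of 93 is near that rate. The groups are members read in the same libraries, so they are not independent. In the granulosa-rich treatment libraries all 3 cases were treatment replicate 5. It had NDUFV2 at 702 CPM, with the other 3 at 352 to 384 CPM. It had COX6C at 928 CPM, with the others at 355 to 436 CPM. It had NDUFA4 at 803 CPM, with the others at 380 to 387 CPM. With TMM scaling it still stood apart for all 3 genes. This library also had the fewest accessions with a count, 12972, and the part of that in these values was not tested.

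In the granulosa-rich control libraries control replicate 8 had SDHC at 346 CPM, with the other 4 at 257 to 277 CPM, and ATP5PB at 839 CPM, with the others at 491 to 578 CPM. Control replicate 7 had CYC1 at 135 CPM, with the others at 231 to 256 CPM. None of these 3 held with TMM scaling, chosen after the values were seen. Control replicate 8 was then at 334 CPM for SDHC, with the others at 232 to 437 CPM, and at 810 CPM for ATP5PB, with the others at 468 to 800 CPM. Control replicate 7 was at 219 CPM for CYC1, with the others at 208 to 299 CPM.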

How the results depend on the processing

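Of 807 alternative values, 792 kept their direction and side of the threshold or moved by less than the tolerance. Counts of called features that stayed at 0 are among them. For median fold changes the tolerance was the standard deviation between libraries of the members' median log2 level. It took in moves without treatment replicate 5 from -0.02 to -0.28 over all libraries and from 0.11 to -0.22 in the interaction. No member was called under any alternative. DESeq2 called 26 features in the granulosa-rich libraries and 31 in the interaction, where edgeR called 0; the cause was not tested. The number of members above in every granulosa-rich library was 5 to 8 with 1 library left out. The 8, without treatment replicate 7, were 25.8% of the members, against 7.6% of all features. That share of all features was 6.14% with no library left out. The number above in every leukocyte-rich library was 2 to 3. The 3 were without treatment replicate 4, where 1246 of 9662 features were so. It was 0 under TMM and 0 under RLE scaling, against 10.4% and 10.8% of all features. The fitted NDUFA10 value over all libraries was -0.12 to 0.17 with 1 library left out, and it turned to -0.12 without treatment replicate 5. With the replicate block no feature was called, over all libraries or in the granulosa-rich ones. There only numbers 4 and 7 occur in both labels, so 4 libraries remain. NDUFA10 was -0.15, the median member -0.55, and 2 members had an unadjusted p under 0.05. The share of all features was not computed for that fit, so the 2 cannot be set against it. The labels do not say that the numbers pair libraries, and of 7 same-numbered pairs 3 had correlated deviations over 0.1 (range -0.67 to 0.66), with 1 pair best with its own number. No paired analysis was possible within the leukocyte-rich libraries because they share 1 number. The median member lay between -0.38 and 0.17 in the granulosa-rich and between -0.16 and -0.02 in the leukocyte-rich libraries with 1 library left out. Depth did not limit detection of the members, all of which had counts in every library. The median SE of the members was 0.33 in the 9 granulosa-rich and 0.16 in the 7 leukocyte-rich libraries.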
